A study of Homo sapiens with 2 samples.

Results

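ENC 1 was the largest of 4 subclusters of enteric neural crest cells in a day 10 culture, and it held 3001 of the 4665 subclustered crest cells. Its members were the cells that the deposited metadata of the day 10 library called both ENC, the enteric neural crest type, and ENC 1. They made up 64.3% of the subclustered crest cells (exact binomial 95% interval 62.9 to 65.7) and 31.2% of all 9627 cells of the library. ENC 2 held 1129 cells, ENC 3 held 348 and ENC 4 held 187, and a further 256 crest cells lay outside the numbered subclusters. The whole series held 15947 cells in 2 libraries.

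The study differentiated human pluripotent stem cells towards the enteric nervous system and sequenced single cells along the way. The day 10 library came from cells of H9, an established line of human embryonic stem cells, grown as an adherent layer on Geltrex. Per the methods, the cells had received BMP4, the TGF-beta receptor inhibitor SB431542 and the WNT pathway activator CHIR 99021, and then retinoic acid together with SB431542 and CHIR 99021. The library pooled cells of 2 biological repeats that the metadata do not separate, no test compound was applied to it, and the other library held suspension spheres at day 15. All 4 subclusters therefore shared the line, the medium, the day and the library, and the tissue label of the adherent sample also named a crestosphere, the later suspension stage. With 1 library there was no replicate check, so no test was run, and all intervals below cover counting error only.

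Neural crest cells leave the edge of the forming neural tube, and those of the vagal level enter the gut and give rise to its neurons and glia. SOX10 is the transcription factor that keeps migrating crest cells multipotent and is needed for the glial fate, and S100B is a calcium-binding protein of glia and their precursors. Enteric progenitors that have entered the gut use RET and EDNRB, while sensory neuron precursors use NEUROG1. EDNRB is also a listed crest marker here.

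The marker genes matched the label of ENC 1 as crest. Levels are given as unique molecular identifiers (UMIs) of a gene summed over the cells of a group, divided by all UMIs of those cells and multiplied by 1000000 (CPM, counts per 1000000). ENC 1 held 22961396 UMIs, against 8109026 in ENC 2, 2246788 in ENC 3 and 1381351 in ENC 4. The floor of 3 UMIs was 0.131 CPM in ENC 1 and 2.17 CPM in ENC 4. Among the 10 genes with the highest ratio of ENC 1 over all other kept day 10 cells, 5 were listed crest markers, among them S100B, ERBB3 and SOX10, and COL1A1 was 1 of the 10 listed mesenchymal markers. The other 4 of these genes were ALX1, NPR3, SPP1 and LGI4. Since the cells were clustered on expression, these levels describe the clusters and were not tested.

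SOX10 (GRCh38 chromosome 22, minus strand, bases 37970686 to 37987422) had nearly the same level in ENC 1 as in the rest of the crest. It stood at 126 CPM (Poisson 95% interval 122 to 131) in ENC 1, 127 (119 to 135) in ENC 2, 128 (113 to 143) in ENC 3 and 104 (87.9 to 123) in ENC 4. The log2 ratio of ENC 1 over the other 3 subclusters summed was 0.02, so SOX10 did not mark ENC 1 among crest cells. S100B (chromosome 21, minus strand, bases 46598962 to 46605208) stood at 102 CPM (98.2 to 107) in ENC 1 and 97.7 (91.0 to 105) in ENC 2, whose intervals overlapped. It was lower in ENC 3, at 68.5 CPM (58.1 to 80.3), and lowest in ENC 4, at 29.7 CPM (21.3 to 40.3). The log2 ratio of S100B in ENC 1 over the other 3 was 0.28, and it was 0.64 when those 3 counted equally, since ENC 2 supplied most of their UMIs. Both genes were higher in ENC 1 than in neuro-epithelial progenitors (NEP), which had 12.6 CPM of SOX10 and 14.7 CPM of S100B.

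**Figure D1:**
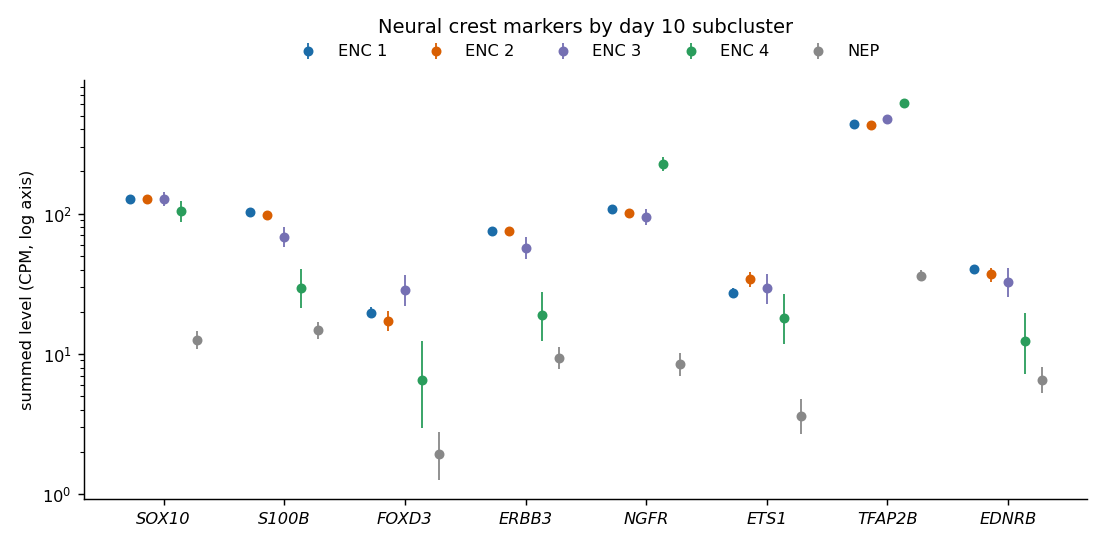
Summed levels (CPM, log axis) of 8 of the 10 listed crest markers in the 4 crest subclusters and in NEP cells, with Poisson 95% intervals. SOX10 sits at 126, 127, 128 and 104 CPM in ENC 1 to ENC 4, while S100B, ERBB3 and EDNRB are lowest in ENC 4 among the crest subclusters.

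Most single cells of ENC 1 showed few UMIs of either marker. After each cell was thinned to 3000 UMIs, 30.9% of ENC 1 cells had a SOX10 UMI (29.2 to 32.5), against 2.34% of NEP cells and 0.426% of non-neural ectoderm (NNE) cells, which should lack it. An S100B UMI was found in 24.9% of ENC 1 cells (23.4 to 26.5), against 3.78% of NEP and 0.851% of NNE cells. Both genes were seen together in 7.70% of thinned ENC 1 cells and neither in 51.9%. The shares were 8.06% and 52.8% in ENC 2, 6.90% and 55.5% in ENC 3, and 1.07% and 65.2% in ENC 4. Among thinned cranial placode cells these shares were 0.619% and 88.5%. Without thinning, 60.3% of ENC 1 cells had SOX10, 44.3% had S100B and 22.9% had neither. The median was 7229 UMIs per ENC 1 cell and 7227 per NEP cell.

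Other crest genes were mostly within 1.5-fold in ENC 1, ENC 2 and ENC 3, and some stood apart in ENC 4. TFAP2B, a crest transcription factor, was at 438 CPM in ENC 1, 430 in ENC 2, 475 in ENC 3 and 612 in ENC 4. FOXD3, which acts early in crest specification, was at 19.7 CPM in ENC 1 (17.9 to 21.6), 17.3 in ENC 2 (14.5 to 20.4), 28.5 in ENC 3 (21.9 to 36.4) and 6.52 in ENC 4 (2.98 to 12.4). PAX3 was at 66.7 CPM, ZEB2 at 145 and SNAI2 at 43.1 in ENC 1. Summed over the 10 crest markers, ENC 1 had 2539 CPM, ENC 2 2422, ENC 3 2278, ENC 4 2178 and NEP 249. Cranial placode cells had 1302 CPM of the same markers, crest cells outside the subclusters 666 and NNE cells 260.

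Markers that define the other day 10 types were low in ENC 1, while the pluripotency list was at a like level in all of them and the neuron list was above NEP and NNE but below CP cells. The 10 NEP markers summed to 24.4 CPM in ENC 1 and to between 21.7 and 27.5 in the other subclusters, against 1499 CPM in NEP cells, and 6 of the 10 had no UMI in ENC 1. The 10 cranial placode (CP) markers summed to 16.4 CPM, against 155 in ENC 4 and 880 in CP cells. The 10 NNE markers summed to 52.7 CPM, against 6436 in NNE cells, and the 8 endothelial and blood markers to 0.436 CPM. The mesenchymal list reached 107 CPM in ENC 1, of which COL1A1 gave 71.8, and 106 in ENC 2, 70.8 in ENC 3 and 111 in ENC 4. The neuron list stood at 80.6 CPM in ENC 1, 71.7 in NEP, 614 in CP and 8.12 in NNE cells. The pluripotency list stood at 252 CPM in ENC 1 and at 226, 261 and 265 in NEP, CP and NNE cells, and the melanocyte list at 41.8 in ENC 1 and 335 in NEP.

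Genes listed for enteric progenitors ranged from no UMI to clearly detected levels in ENC 1. RET, the GDNF receptor, and HAND2 had 0 UMIs among the 22961396, which allows up to 0.131 CPM. GFRA1, the RET co-receptor, was at 24.3 CPM and the endothelin receptor gene EDNRB at 40.5 (38.0 to 43.2). The HOX genes of paralogue groups 1 to 8, which record position along the body axis, summed to 12.0 CPM over 16 genes, 6 of them without a UMI. HOXB2 supplied 8.45 CPM of that sum. The receptor gene PDGFRA was at 0.915 CPM (0.566 to 1.40) and PDGFRB at 1.70 (1.21 to 2.32), both under their levels in NEP cells of 3.63 and 4.70 CPM.

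ENC 1 cells were spread over the cell cycle. By the deposited phases, G1 held 37.7% of them (36.0 to 39.4), S phase 34.8% (33.1 to 36.5) and G2/M 27.5% (25.9 to 29.2). ENC 2 had fewer G1 cells, at 30.6%, and more G2/M cells, at 35.0%. ENC 3 held 8.62% S-phase cells, and ENC 4 had the most G1 cells, at 56.7%. Scored again with scanpy, ENC 1 had 33.9% in G1, 27.9% in S and 38.2% in G2/M, and ENC 3 had 16.4%, 4.02% and 79.6% in the same order, against its deposited 49.4% in G1 and 8.62% in S. The authors had regressed cycle scores out before clustering.

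**Figure D2:**
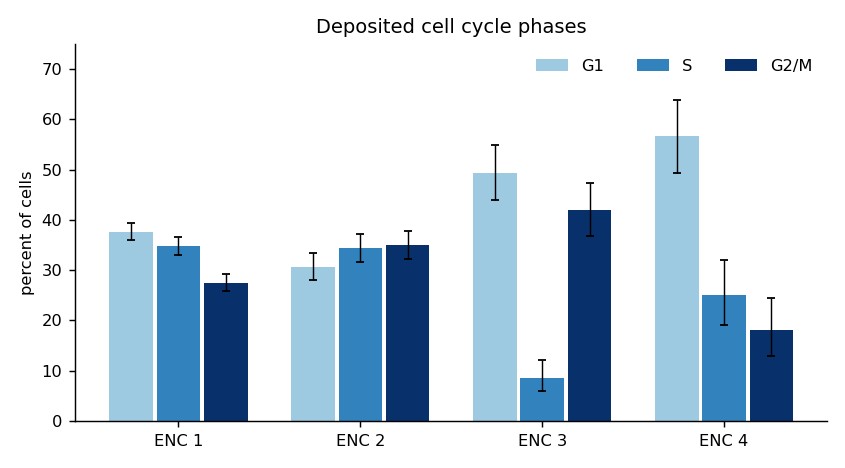
Percent of cells in each deposited cell cycle phase in the 4 crest subclusters, with exact binomial 95% intervals. ENC 1 is spread at 37.7%, 34.8% and 27.5% over G1, S and G2/M, while ENC 3 has 8.62% of its cells in S.

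Compared with the other 3 subclusters summed, ENC 1 had no gene that stood out as higher. Of 4429 genes with at least 20 CPM in ENC 1 or in the sum, 0 were 1.5-fold higher in ENC 1 (0%) and 96 were 1.5-fold lower (2.17%), with ratios taken on CPM + 1. The median log2 ratio over all 4429 genes was -0.0035, and 97.8% of them lay within 1.5-fold. The S-phase list had a median of 0.14 with 0 of 16 genes past 1.5-fold, and the G2 and mitosis list 0.02 with 0 of 18. These medians were -0.23 and -0.97 among cells in G1 by deposited phase. The largest ratio of a gene was that of CDK1. CDK1 (chromosome 10, 60778331 to 60794852, plus strand), the kinase that drives entry into mitosis, was at 75.1 CPM in ENC 1 and 52.6 in the other 3, a log2 ratio of 0.51. The replication genes FEN1 and PCNA reached 0.46 and 0.36, the mitotic kinase gene AURKA 0.36 and the replication-dependent histone genes HIST1H4C and HIST1H1C 0.29 each. The growth factor gene PTN and S100B, at 0.28 each, closed the 15 largest ratios. Over ENC 3 alone, the log2 ratios of CDK1, FEN1, PCNA and AURKA were 2.76, 1.28, 0.79 and 2.08, whereas over ENC 2 none of these genes passed 1.5-fold. When the 3 subclusters counted equally instead of by their UMIs, 24 genes were 1.5-fold higher in ENC 1, and 10 were when G1 cells alone were summed. The genes compared change with these settings, and no share is given for them.

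At the other end, PTPRS had a log2 ratio of -2.35, CTNNB1 -2.17, C1orf56 -2.13, LRRC75A -2.03 and HNRNPH1 -1.70. Of the 96 lower genes, 89 (92.7%) were also among the genes that were lower in ENC 1 than in ENC 2 alone. ENC 2 supplied 8109026 of the 11737165 UMIs of the sum, so this overlap was largely fixed in advance. Leaving ENC 2 out of the sum gave 74 lower genes, of which 10 were among the 96, together with 115 higher ones. The genes compared also change in that setting, and no share is given.

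ENC 2 was the subcluster closest to ENC 1, and summed over all phases the genes past 1.5-fold were all lower in ENC 1. Of 4455 genes, 0 were higher in ENC 1 (0%) and 134 lower (3.01%). Among G1 cells alone 22 were higher, and among G2/M cells alone 20. Fewer cells raise counting error there and no share over all genes is given, so these counts are not read as a result. The log2 levels of the 2 subclusters correlated at r = 0.986 across genes, which are not independent replicates. CTNNB1 (chromosome 3, 41194741 to 41260096, plus strand) encodes beta-catenin, which joins cadherins to the cytoskeleton and carries the WNT signal. It was at 49.2 CPM (46.4 to 52.2) in ENC 1, 299 (288 to 311) in ENC 2, 56.5 (47.1 to 67.3) in ENC 3 and 62.3 (49.8 to 76.9) in ENC 4. ENC 1 thus had about the level of ENC 3 and ENC 4, and among the subclusters ENC 2 stood alone with the high level. Crest cells outside the subclusters had 227 CPM of CTNNB1, NEP cells 152, CP cells 116 and NNE cells 182, all above ENC 1.

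The same arrangement among the subclusters held for other genes of this set. PTPRS (chromosome 19, minus strand, bases 5158495 to 5340803), a receptor tyrosine phosphatase, was at 22.2 CPM in ENC 1, 159 in ENC 2, 20.5 in ENC 3 and 31.9 in ENC 4. HNRNPH1, an RNA-binding splicing regulator, was at 141 CPM in ENC 1, 588 in ENC 2, 168 in ENC 3 and 170 in ENC 4. SOX11, a transcription factor of neural progenitors, was at 61.2, 195, 46.3 and 76.7 CPM in the same order. MSI1, an RNA-binding protein of neural stem cells, was at 20.0, 77.2, 23.1 and 24.6 CPM. WTAP, a subunit of the RNA methylation complex, was at 36.1 CPM in ENC 1 and 107 in ENC 2, and MDM4, a regulator of p53, at 48.0 and 151. CDH6, a cadherin of crest cells, was at 38.7 CPM in ENC 1, 81.9 in ENC 2, 36.5 in ENC 3 and 21.7 in ENC 4. In this set, ENC 1 shared low levels with ENC 3 and ENC 4. Of the 134 genes, 57 were higher in ENC 3 than in ENC 1 and 66 in ENC 4. In crest cells outside the subclusters 126 were higher, in NEP 113, in CP 114 and in NNE cells 110. ENC 1 was low in these genes by their choice, so no conclusion was drawn from these counts.

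No gene list as a whole separated ENC 1 from ENC 2. The medians of the 22 lists with a gene to compare lay between -0.08 and 0.17 in log2, beside 0.01 over all 4455 genes. Glycolysis had the largest, at 0.17 over 14 genes, with ENO1 at 1533 CPM in ENC 1 and 1209 in ENC 2 and PGK1 at 415 and 330. GSN, which codes for an actin-severing protein, had the largest ratio over ENC 2 among genes with 50 CPM in either subcluster, at 0.41. Of the listed genes, CDH6 and HELLS, a chromatin remodeller at 98.9 and 152 CPM, were 1.5-fold lower in ENC 1, and 0 were 1.5-fold higher.

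**Figure D3:**
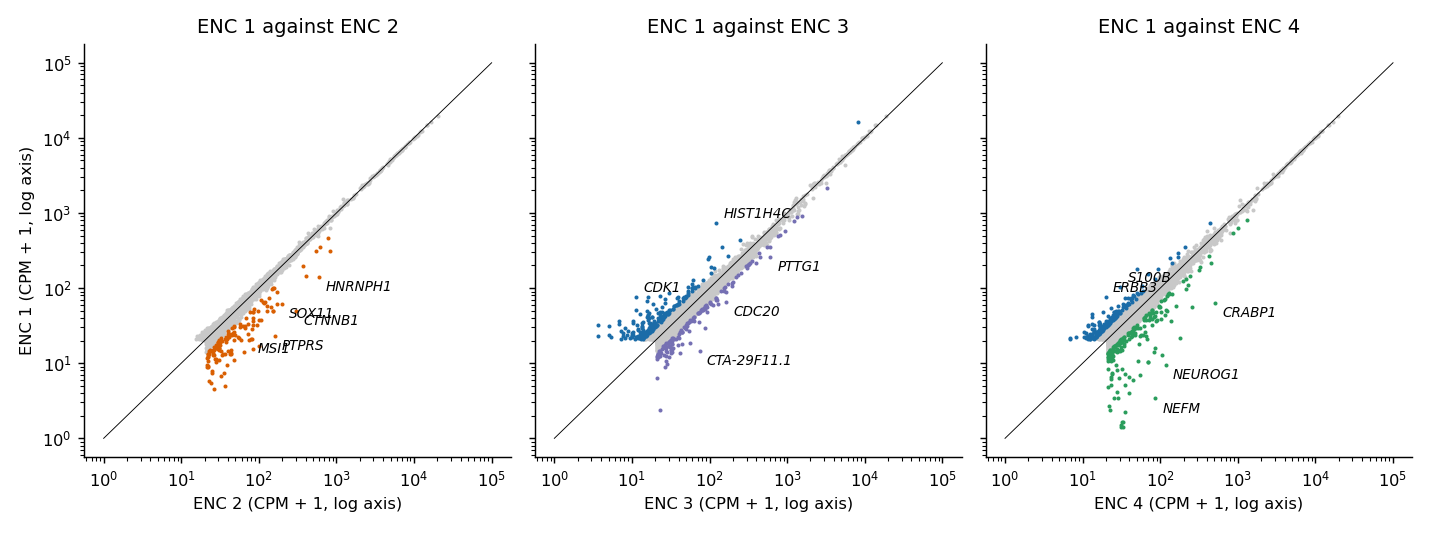
Each point is a gene with at least 20 CPM in ENC 1 or in the compared subcluster, plotted as CPM + 1 on log axes. Blue points are 1.5-fold higher in ENC 1 (0 over ENC 2, 212 over ENC 3, 186 over ENC 4), orange, purple and green points 1.5-fold lower (134, 143 and 198), and grey points lie within that fold.

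The 134 genes were then summed in single cells, and by their choice the sums had to be higher in ENC 2 than in ENC 1. Per cell thinned to 3000 UMIs, they summed to a median of 15 UMIs in ENC 1 (5th to 95th percentile 8 to 26), 36 in ENC 2 (21 to 52), 15 in ENC 3 and 16 in ENC 4. The midpoint between the ENC 1 and ENC 2 medians was 25.5 UMIs, and 5.50% of ENC 1 cells lay above it, as did 87.1% of ENC 2 cells, 10.1% of ENC 3 and 12.3% of ENC 4. Within 3 UMIs of the midpoint lay 240 ENC 1 cells and 161 ENC 2 cells, so the boundary between these subclusters was a range. These sums are a description and no support for the difference.

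Cells that the subclustering of crest cells had not used gave the same genes a wide spread. The share above 25.5 UMIs was 37.4% in NEP, 38.4% in CP and 41.7% in NNE cells. The lower 5.50% of ENC 1 followed from the choice of genes and midpoint, and no conclusion was drawn from it. When the 134 genes were divided alternately by name into sets of 67, the sums of the sets correlated at r = 0.750 over 1798 NEP cells, 0.765 over 323 CP cells and 0.687 over 235 NNE cells, and at 0.326 within ENC 1. Within ENC 2, ENC 3 and ENC 4, r was 0.430, 0.431 and 0.572. The crest subclusters had been divided on expression, so their correlations cannot be set against those of undivided types. The cells share 1 library, and other gene sets were not read in this way.

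Transcripts of this set were longer, and depth moved with it in some groups more than in others. ENC 1 cells had a median of 7229 UMIs and ENC 2 cells 6550, and NEP cells above the midpoint had 6322.5 against 7606 below. Over single cells, the summed UMIs of the set correlated with cell UMIs at r = -0.06 in ENC 1 and -0.05 in ENC 3. This r was -0.37 in ENC 2, -0.18 in ENC 4 and -0.31 in NEP. Mitochondrial UMIs were at a median of 3.48% in ENC 1 and 3.50% in ENC 2, and ribosomal protein genes at 45.1% in both. The longest annotated transcript of the 134 genes had a median of 5341 bases, against 3295 for all genes compared, with lengths found for 97.0% of the set. The part of depth and length in the difference was not tested. In the phases of ENC 1, CTNNB1 stayed at 48.2 CPM in G1, 45.4 in S and 54.3 in G2/M.

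**Figure D4:**
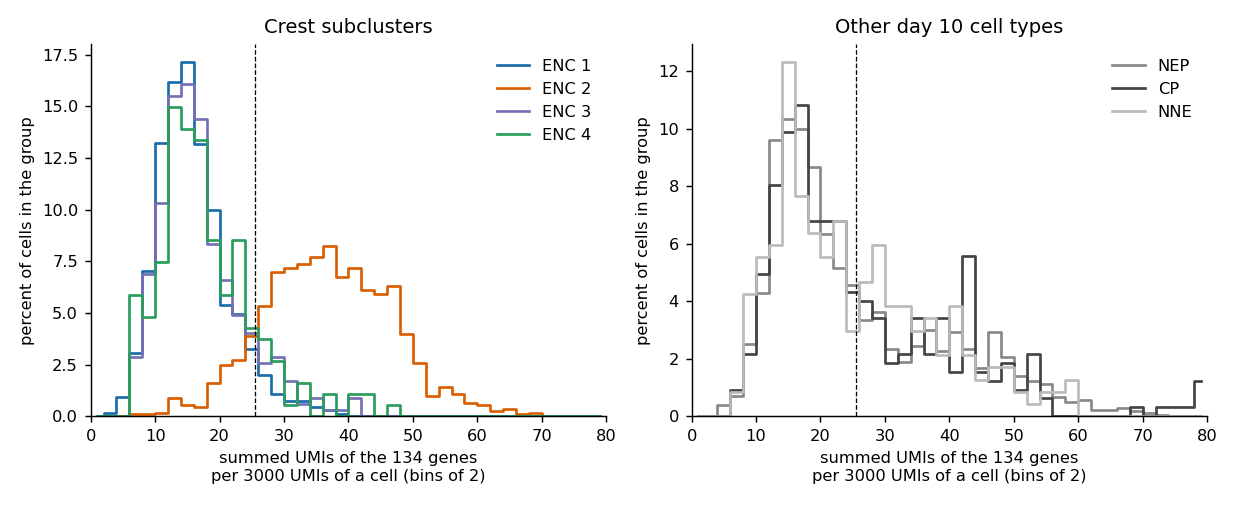
Distribution over cells of the summed UMIs of the 134 genes that were lower in ENC 1 than in ENC 2, per 3000 UMIs of a cell, for the crest subclusters and for the other day 10 types; the last bin also holds cells above 80. The dashed line is the midpoint of 25.5, above which lie 5.50% of ENC 1, 87.1% of ENC 2 and 37.4% of NEP cells.

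ENC 3 differed from ENC 1 in genes of the cell cycle, in both directions. Of 4506 genes, 212 were 1.5-fold higher in ENC 1 (4.7%) and 143 lower (3.17%). With at least 50 CPM required the balance turned, to 54 higher and 72 lower of 2083 genes, and at 100 CPM to 17 and 41 of 1085. CDK1 was at 75.1 CPM (71.6 to 78.7) in ENC 1 and 10.2 (6.49 to 15.4) in ENC 3. HIST1H4C was at 729 CPM against 121, AURKA at 65.4 against 14.7 and FBXO5, an inhibitor of the anaphase-promoting complex, at 50.7 against 10.2. ENC 1 was lower in PTTG1, the securin gene, at 258 CPM against 603, and in CDC20, which activates the anaphase-promoting complex, at 65.0 against 162. CTA-29F11.1 was also lower in ENC 1, at 13.6 against 73.4 CPM.

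The size of these differences was not the same in each deposited phase. Scored again with scanpy, 16.4% of ENC 3 cells were in G1, against 49.4% by deposited phase. The G1 values below therefore depend on the phase call. PTTG1 had a log2 ratio of -2.52 among G1 cells, where it was at 73.0 CPM in ENC 1 and 425 in ENC 3, and of -0.51 among G2/M cells. CDC20 had -2.71 among G1 and -0.72 among G2/M cells. CDK1 had 1.53 among G1 cells and 3.03 among G2/M cells, where it was at 157 CPM in ENC 1 and 18.3 in ENC 3. FBXO5 was at 12.5 against 13.6 CPM among G1 cells and 76.6 against 4.32 among G2/M cells. The S-phase list had 8 of 16 genes 1.5-fold higher in ENC 1, with a median log2 ratio of 0.58 beside -0.04 over all genes, among them CDC6 at 1.57 and PCNA at 0.79. The G2 and mitosis list was divided, with 5 of 18 genes higher, TOP2A at 1.43 and UBE2C at 1.30 among them, and 4 lower, including BIRC5 at -0.90 and BUB1 at -0.80. The nuclear non-coding RNA MALAT1 was at 16229 CPM in ENC 1 and 8294 in ENC 3. Of the 10 crest markers 0 passed 1.5-fold, and of 13 crest transcription factors 2 were higher in ENC 1, SOX5 at 22.8 against 9.35 CPM and TFAP2A at 36.1 against 23.6.

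ENC 4 differed from ENC 1 in glial, mitotic, Notch and BMP response genes. Of 4563 genes, 186 were 1.5-fold higher in ENC 1 (4.08%) and 198 lower (4.34%). At the depth of ENC 4, 20 CPM was 27.6 UMIs, and with at least 100 CPM required 12 of 1042 genes were higher and 30 lower. Of 11 genes of the glial and Schwann precursor list, 5 were higher in ENC 1. They were ERBB3, the neuregulin receptor of crest and Schwann cell precursors, at 75.1 CPM (71.6 to 78.8) against 18.8 (12.3 to 27.6), S100B at 102 against 29.7, GAP43 at 44.3 against 12.3, TTYH1 at 47.8 against 17.4 and FABP7 at 39.2 against 25.3. NGFR, the low-affinity neurotrophin receptor, ran the other way, at 108 CPM in ENC 1 and 225 in ENC 4. The median of this list was 0.48, beside -0.01 over all 4563 genes. EDNRB was at 40.5 CPM against 12.3 and PTN at 178 against 49.95. Of the 9 crest markers compared, 3 were higher and 1 lower, and of 12 crest transcription factors 1 was higher, SNAI2 at 0.82, and 2 lower, TFAP2A at -0.84 and ID3 at -0.65.

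Some mitotic genes were also higher in ENC 1 than in ENC 4. Of the 18 genes of the G2 and mitosis list, 6 were 1.5-fold higher, with BUB1 at 1.11 and CENPF at 0.80, and the median was 0.55. The ribosome biogenesis list had 5 of 12 genes lower, with a median of -0.37. ENC 4 had 18.2% of its cells in G2/M by deposited phase, against 27.5% of ENC 1.

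The genes lower in ENC 1 than in ENC 4 included a neurofilament gene and a neurogenic factor. NEFM, the neurofilament gene, was at 2.40 CPM (1.80 to 3.12) in ENC 1 and 84.7 (70.0 to 102) in ENC 4. NEUROG1, the sensory neurogenic factor and a listed placode marker, was at 8.54 CPM (7.38 to 9.82) against 117 (99.2 to 136). The neuron list as a whole had no common direction, with 1 of 3 genes higher (GAP43 at 1.77), 1 lower (DCX at -1.91) and a median of 0.11. IGFBP5 was at 20.6 CPM against 179 and the retinoic acid binding protein gene CRABP1 at 63.1 against 512. In the Notch list 3 of 5 genes were lower and 1 was higher, at a log2 ratio of 0.65. The lower ones were the ligand genes DLL1, at 0.523 against 30.4 CPM, and DLL3, at 9.32 against 68.0, and HES6 at 55.6 against 253. All 4 genes compared in the BMP and TGF-beta list were lower: ID1, ID2, ID3 and ID4, inhibitors of bHLH factors, had log2 ratios from -1.30 to -0.65. Of 7 enteric progenitor genes 4 were lower and 1, EDNRB, was higher, with log2 ratios from -4.52 to 1.64. Among the lower ones were MEIS2 at 41.3 against 84.0 CPM and GFRA1 at 24.3 against 39.1. The 10 placode markers summed to 155 CPM in ENC 4 and 880 in CP cells, and the part of such cells in these ratios was not tested.

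**Figure D5:**
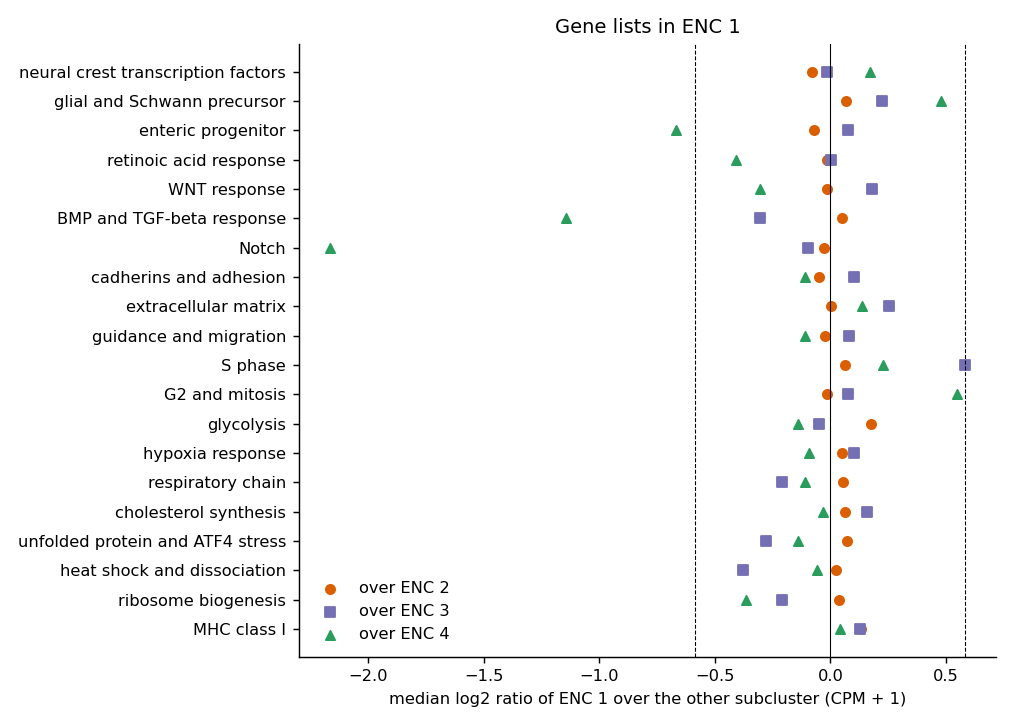
Median log2 ratio of ENC 1 over ENC 2, ENC 3 and ENC 4 for the gene lists with at least 3 genes compared in each; dashed lines mark 1.5-fold. Ratios over ENC 2 lie between -0.08 and 0.17, the S-phase list is at 0.58 over ENC 3, and the Notch list is at -2.16 over ENC 4.

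After thinning, the spread of most genes among ENC 1 cells was near that of counting. Among 2689 genes with a mean of at least 0.1 UMIs per thinned cell, leaving out mitochondrial and ribosomal protein genes, the median ratio of variance to mean was 1.02, where sampling alone gives a value near 1, and 96.4% of genes were under 1.2. At low means such a ratio cannot exclude real variation. TOP2A, with means of 0.0734 UMIs in G1 and 1.82 in G2/M cells, had a ratio of 2.20. The largest ratios were MALAT1 at 5.09, HIST1H4C at 3.64, CRABP1 at 3.48, UBE2C at 3.02, HMGB2 at 2.54, ID3 at 2.45, TUBA1B at 2.28, TOP2A at 2.20, CRABP2 at 2.17 and PTTG1 at 2.05. HIST1H4C had a mean of 0.393 UMIs in G1 cells, 2.55 in S and 3.18 in G2/M, and UBE2C 0.103, 0.435 and 2.59. CRABP1 did not follow the phases, with means of 0.185, 0.211 and 0.165. After thinning, 10.5% of ENC 1 cells had a CRABP1 UMI, and the highest cell had 15.

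Several crest genes differed between the phases of ENC 1, by deposited phase. SOX10 was at 146 CPM (137 to 155) in G1, 121 (114 to 129) in S and 114 (106 to 121) in G2/M. EDNRB followed the same order, at 54.8, 36.0 and 31.6 CPM. FOXD3 ran in the opposite order, at 12.7 CPM (10.3 to 15.6) in G1, 20.0 (17.02 to 23.3) in S and 26.1 (22.6 to 30.0) in G2/M. S100B was at 112, 118 and 76.8 CPM.

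Clustering the 4665 cells again gave ENC 1 back at the resolution of 0.2. Of 4 rebuilt clusters, 1 held 2959 of the 3001 ENC 1 cells (98.6%) among 3060 cells. At a resolution of 0.3, ENC 1 was divided into 2293 and 567 cells, with few left elsewhere. The cluster of 567 was 48.3% in S and 43.7% in G2/M, with 7.94% in G1 and a median of 8664 UMIs against 6943. Its histone genes were higher, with HIST1H1B at 62.9 against 10.8 CPM and HIST1H4C at 1726 against 464, and REC8 was lower, at 61.4 against 146. SOX10 was at 142 and 121 CPM. These genes were chosen after their values were seen. Without regression of cycle scores, depth and quality measures, ENC 1 was spread over 3 clusters of 1224, 1174 and 603 of its cells.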

How the data were processed

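Cells of 1 day 10 library were compared by deposited subcluster. The authors extracted UMI counts with kallisto and bustools per their methods, and the submitters' processing notes name Cell Ranger, Seurat 4.0.4 and GRCh38. The annotation is not given in the sources used here. The deposited counts are raw whole numbers. The deposited metadata give the percent of mitochondrial and ribosomal UMIs, phases, types and subclusters. The authors regressed genes, UMIs, both percents and cycle scores before clustering.

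Counts were summed per group and scaled to CPM, where 1 CPM was added before log2. Genes needed 20 CPM in 1 of the groups, and 1.5-fold was the threshold. Intervals (95%) are exact Poisson or Clopper-Pearson and cover counting error, with a floor of 3 UMIs. Thinning to 3000 UMIs left out 13 NEP, 1 CP and 4 NNE cells and 0 cells of the 4 subclusters. The libraries shared 102 barcodes, 31 of them of ENC 1 cells. Doublets were not removed beyond the authors' limits.

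Named genes were listed genes, the 15 largest and 15 smallest ratios over the other 3 subclusters, and 5 each way over each subcluster, among genes with 50 CPM in 1 of the groups and UMIs in 10% of its cells, without mitochondrial and ribosomal protein genes, plus the 10 most variable. Members and lists were chosen with earlier results of these data known. Some genes so named are not reported here. Clusters were rebuilt in Seurat 5.3.0 (R 4.3.3) with 17 principal components, TMM factors came from edgeR 4.0.16, and phases were scored again in scanpy 1.11.5. Python 3.11.15 was used, and the scripts were tested on simulated data. Gene positions and transcript lengths are from GENCODE on GRCh38.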

Additional observations from a re-analysis of the deposited data

Results flagged for a closer look

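The 134 genes lower in ENC 1 than in ENC 2 were also read in day 10 cells that the authors' quality filters had removed, which no comparison used. Their summed UMIs per 3000 had a median of 31 in 1766 removed cells, and 60.1% of the removed cells lay above the midpoint of 25.5. The median of 15 in ENC 1 was low by the choice of these genes, so the excess over it is no finding. Removed cells above the midpoint had a median of 3652.5 UMIs and those below 8626, and the part of depth in this was not tested. A further 566 removed cells had fewer than 3000 UMIs.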

How the results depend on the processing

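No paired analysis was possible because each group came from 1 library. Beside 0 genes higher in ENC 1 than in the other 3 subclusters, 24 were higher when ENC 2, ENC 3 and ENC 4 counted equally, 10 in G1 cells, 40 with no filter beyond 3 UMIs, 115 without ENC 2, and 1 each with mitochondrial and ribosomal protein genes out of the total, with the mean CPM of each cell and without the deepest 6% of cells. The 96 lower genes became 43 with a 50 CPM filter, 366 with none and 46 at 2-fold. Equal weights moved the S100B ratio to 0.64 and put 1 list median past 1.5-fold, as did G1 cells alone, against 0. The ENC 1 share was 61.0% with crest cells outside the subclusters counted. S was 27.9% and G2/M 38.2% when scored with scanpy, and G2/M 25.3% without the deepest cells. ENC 1 cells in 1 rebuilt cluster came to 100% at resolution 0.1, where only 1 cluster formed, 76.4% at 0.3 and 40.8% with no regression.

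Alternatives chosen after seeing the data gave these counts. Over ENC 2, genes higher were 22 in G1 and 20 in G2/M cells against 0, and lower 54 at 50 CPM, 26 at 100 CPM and 66 at 2-fold against 134. Over ENC 3, higher were 54, 17 and 64 under those settings and 413 in G2/M cells against 212, and lower 72, 41 and 26, and 309 in G1 and 279 in G2/M cells, against 143. Over ENC 4, higher were 37, 12 and 27, and 492 in G2/M cells, against 186, and lower 75, 30 and 67, and 344 in G1 and 677 in G2/M cells, against 198. Fewer cells raise counting error in the phase settings. The number of genes compared also changes with the filter and the cells, so the counts in this section are not shares. Of 329 alternative values, 228 stayed within the counting error or 1.5-fold. The median of the G2 and mitosis list over the other 3 went from 0.02 to -0.97 in cells in G1 by deposited phase. TMM scaling moved no count past 1.5-fold. Other causes were not tested.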

Other observations

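In the day 15 library, whose subclusters are numbered separately, the share of cells above 25.5 summed UMIs of the 134 genes was 36.5% in ENC 1′, 45.8% in ENC 2′, 35.9% in ENC 3′ and 37.7% in ENC 4′, at medians of 21 to 24 UMIs. Within the 254 day 10 crest cells outside the numbered subclusters that had 3000 UMIs, the share was 51.2%.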
